A study of Mus musculus with 284 samples.

Results

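Genes of the transforming growth factor beta (TGF-beta) pathway were followed through single tumour propagating cells of mouse skin tumours, which can seed a further tumour when transplanted. The set has 10 genes, taken from the count table by name: the ligands Tgfb1 and Tgfb2, the receptors Tgfbr1, Tgfbr2 and Acvrl1, the signal carriers Smad2 and Smad3, the inhibitors Smad7 and Skil, and the target gene Tgfbi. They are 10 of 54247 genes in the count table, of which 26023 had a count in any cell, and all 10 had counts. The series asked about a glycolytic subset of these cells in squamous cell carcinoma and holds 284 cells of C57BL/6 mice. WT1 (69 cells) and WT2 (88 cells) carry the genotype label WT, and KO1 (73 cells) and KO3 (54 cells) carry the label Sirt6-/-, the loss of a chromatin-bound deacetylase. All mice received the carcinogen DMBA once at 8 weeks of age and then the tumour promoter TPA repeatedly for more than 20 weeks. The protocol, given in the same words for every sample, sorted cells of digested tumours that were positive for CD34, for CD49f and for YFP, a reporter at ROSA26 that Keratin14-Cre switches on in cells with keratin 14 expression. The labels do not say whether the Sirt6 deletion was inherited or made by that Cre, nor whether the cells of a mouse came from 1 tumour.

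TGF-beta ligands are secreted in a latent form and, once released, bring together the type II receptor (Tgfbr2) and the type I receptor (Tgfbr1), which phosphorylates SMAD2 and SMAD3. These enter the nucleus with SMAD4 and act on target genes such as Tgfbi, which encodes a matrix protein that binds integrins. SMAD7 blocks the type I receptor and SnoN, the product of Skil, represses SMAD complexes, and both genes are themselves known as targets of the pathway. In epidermis the pathway is known to restrain the growth of keratinocytes, and in squamous tumours it is known to act on growth and on invasion.

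Promoters of 2 members are shown, that of Tgfbr1, the receptor called by DESeq2 that was found in many cells, and that of the target gene with the highest level. RefSeq promoter sequences matched 6 of the 10 genes. Both lie on the plus strand of GRCm38.p6 and end at the last base before the annotated start of the gene. The Tgfbr1 sequence is chr4:47352972-47353221, and the Tgfbi sequence is chr13:56609336-56609522. Capitals mark CAGAC, the core of a SMAD binding element, on either strand (printed as GTCTG where it lies on the minus strand), and GGGCGG, the core of a GC box.
Tgfbr1: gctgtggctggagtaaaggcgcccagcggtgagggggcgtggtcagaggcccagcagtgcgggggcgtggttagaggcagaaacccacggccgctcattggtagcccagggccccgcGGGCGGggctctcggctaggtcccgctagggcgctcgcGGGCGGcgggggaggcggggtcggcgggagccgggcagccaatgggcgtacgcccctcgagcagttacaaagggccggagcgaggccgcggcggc
Tgfbi: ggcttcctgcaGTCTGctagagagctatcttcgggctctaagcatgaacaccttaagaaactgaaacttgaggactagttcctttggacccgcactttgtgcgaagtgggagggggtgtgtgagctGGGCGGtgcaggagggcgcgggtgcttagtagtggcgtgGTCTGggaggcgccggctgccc

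The Tgfbr1 window of 250 bases had a GC content of 74.8%, with GGGCGG at 133 and at 95 bases before the start and 0 matches to CAGAC. It also had CCAAT at 57 bases before the start on the plus strand and at 154 on the minus strand. The Tgfbi window of 187 bases had a GC content of 59.4%, with CAGAC on the minus strand at 176 and at 22 bases before the start and GGGCGG at 61. The searches covered both strands, and the motifs do not overlap one another. Of 32851 promoters, 42.2% held CAGAC in a window of the Tgfbr1 length and 34.2% in a window of the Tgfbi length, and 32.7% and 22.2% held GGGCGG. The letters CCAAT were in 33.8% and 26.2% of these windows, with 0 matches in Tgfbi. The TATA box letters TATAAA, in 12.4% and 8.6% of the windows, had 0 matches in both genes. Matches this common describe the letters and show no bound site.

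The summed counts of a mouse lay between 66335552 and 92622682, and the cells had between 523999 and 1684464 counts (median 1130412). Each cell is 1 library without molecular identifiers, so the mouse is the replicate (n = 2 per genotype) and intervals on shares of cells cover counting error only. With 2 against 2 mice the smallest two-sided exact permutation p is 0.33. No plate held both genotypes: KO1 and KO3 came from plates 1 and 2, WT1 and WT2 from plates 3 and 4. Genotype and plate therefore cannot be told apart, and no comparison of the genotypes within a plate could be made. CPM are counts scaled to the library total. Sirt6 lay at 16.7 (WT1), 25.2 (WT2), 27.0 (KO1) and 14.5 CPM (KO3), levels that do not show the loss the label names. If only some exons were deleted, reads of the others would still be counted, and this table does not resolve exons. KO1 and KO3 are therefore called the mice labelled Sirt6-/-, and every direction rests on that label. Of the marker lists of other cell types, the fibroblast list stayed at 1.72 CPM or less with Col1a2, Dcn and Lum at 0, and the endothelial list at 6.28 (WT1), 6.43 (WT2), 9.03 (KO1) and 6.99 CPM (KO3) with Kdr and Emcn at 0. The lymphoid and melanocyte lists stayed at 4.69 CPM or less, and the myeloid list lay at 6.22, 29.05, 6.16 and 12.71 CPM in the same order, highest in WT2. At least 2 endothelial markers were found together in 3 (WT1), 1 (WT2), 0 (KO1) and 5 cells (KO3). For the myeloid markers these counts were 0, 3, 1 and 0 cells. All 284 cells had at least 2 of the 5 keratinocyte markers. Cd34, Itga6 (CD49f) and Krt14 are among these markers and the sort itself rested on them. The count is therefore no separate check of purity.

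Levels were first compared between the genes, per length, as TPM, the share of transcripts in the summed cells after division by exon length. Tgfbi was far above the rest at 393 ± 208 TPM (SD, n = 4 mice), and its lowest mouse lay above the highest mouse of every other member. Tgfbr2 followed at 32.1 ± 10.1 and Skil at 19.5 ± 5.73 TPM. Smad3 (13.3 ± 3.49), Tgfbr1 (10.4 ± 6.32) and Smad2 (9.4 ± 3.23 TPM) overlapped one another over the mice. Below them, and without overlap with Smad2, came Smad7 at 4.33 ± 1.37 TPM, followed by Tgfb2 at 3.46 ± 2.18, Tgfb1 at 0.98 ± 0.74 and Acvrl1 at 0.83 ± 0.96. The neighbours in this order overlapped except at the steps below Tgfbi and below Smad2, and Skil was above Smad3 in all 4 mice although their ranges overlapped. Of Smad3, Tgfbr1 and Smad2, Tgfbr1 varied most over the mice, and its level in KO1 (4.19 TPM) lay within the range of Smad7.

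The comparison of the genotypes asked whether these genes differ between wild-type cells and cells of the mice labelled Sirt6-/-. In the summed cells, the type I receptor gene Tgfbr1 lay about 2.95-fold higher in the wild type, and the inhibitor genes Smad7 and Skil and the target Tgfbi were 1.55-fold to 1.95-fold higher there. Tgfbr2, Smad2, Smad3, Tgfb1 and Tgfb2 overlapped between the genotypes. All 10 members had a negative log2 difference (the mice labelled Sirt6-/- minus wild type), as did 50.7% of the 16567 genes tested. The median of the members was -0.81 against -0.01 for all genes. The members were chosen with earlier results of these data known, so these counts describe the set and do not test it. In 5 members (Tgfbr1, Acvrl1, Smad7, Skil and Tgfbi) both mice labelled Sirt6-/- lay below both wild-type mice, where 18.7% of all genes did so. In 0 members both lay above, a direction for which no share of all genes is given.

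Whether a difference passed depended on the test. By edgeR's quasi-likelihood test with Benjamini-Hochberg adjustment over all genes, 0 members were called, and 0.0% of all genes. At an unadjusted p under 0.05 edgeR had 2 members, Tgfbr1 and Acvrl1, where 5.12% of all genes fell under that limit. DESeq2 called the same 2 members, both lower, where it called 0.911% of the genes it tested and 0.696% in that direction. Limma-voom called 0 members and 0.0% of all genes. The shares of cells with a count parted the genotypes, with KO1 and KO3 under WT1 and WT2, for 5 members (Tgfbr1, Smad3, Smad7, Skil and Tgfbi) and for 13.8% of all genes. All 10 members passed the filter on low counts. Acvrl1 did so only through the wild-type mice, with 239 (WT1), 245 (WT2), 1 (KO1) and 0 counts (KO3). Its call and its place in the counts of lower members are therefore not independent of that filter. A level in summed cells mixes the share of cells with the transcript and the amount per cell, so both are given for each gene. Markers of pericytes and smooth muscle also parted the genotypes, with a summed level of 43.35 (WT1), 77.62 (WT2), 20.91 (KO1) and 21.86 CPM (KO3), mostly Acta2, and with Rgs5 and Pdgfrb at 0 in every mouse. At least 2 of those 5 markers were found together in 0, 5, 1 and 0 cells, and their part in the differences was not tested.

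**Figure D1:**
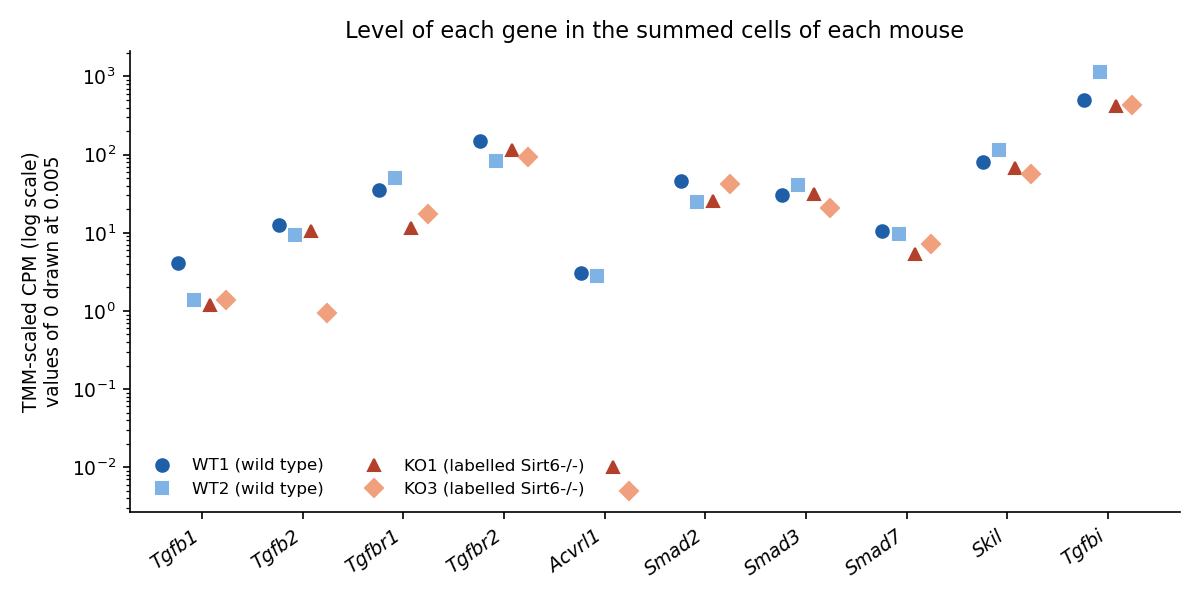
Level of each member in the summed cells of each mouse, as CPM with TMM scaling on a log axis, with 1 point per mouse (blue, wild type; red and orange, labelled Sirt6-/-). Both mice labelled Sirt6-/- lie below both wild-type mice for Tgfbr1, Acvrl1, Smad7, Skil and Tgfbi, and the value of 0 of Acvrl1 in KO3 is drawn at the bottom of the axis.

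Among the ligands, Tgfb1 (ENSMUSG00000002603.15; GRCm38 chromosome 7, 25687002 to 25705077, plus strand) was rare in these cells. It lay at 4.16 (WT1), 1.38 (WT2), 1.18 (KO1) and 1.39 CPM (KO3) (scaled with the TMM factors of edgeR, as are all levels of single members), so that WT1 stood above 3 mice at almost the same level. Counts were found in 15, 14, 12 and 7 cells, or 21.7% (95% exact interval 12.7 to 33.3), 15.9% (9.0 to 25.2), 16.4% (8.8 to 27.0) and 13.0% (5.4 to 24.9). Between the genotypes the log2 difference was -1.11 (SE 0.918; edgeR adjusted p = 0.974), and -0.09 without WT1. In the cells with a count the median level was 16.3 CPM in WT1 against 5.1, 3.3 and 1.9 in WT2, KO1 and KO3.

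Tgfb2 (ENSMUSG00000039239.14; chromosome 1, 186622792 to 186705989, minus strand), the second ligand, was found in as few cells but at higher levels within them. It lay at 12.44 (WT1), 9.23 (WT2), 10.41 (KO1) and 0.95 CPM (KO3). KO3 was the low mouse, with 63 counts in 4 of its cells, while KO1 lay between the wild-type mice, so the genotypes overlapped. Counts were found in 14, 11, 13 and 4 cells (20.3%, 12.5%, 17.8% and 7.4%), and the median in those cells was 56.2, 61.2, 34.7 and 12.8 CPM. This gave a log2 difference of -0.93 (SE 1.14; edgeR adjusted p = 0.993). The value was -0.06 without KO3 and -3.50 without KO1. The annotated partners that overlap Tgfb2, Gm26169 and Gm29491 on the opposite strand, were at 0 CPM in every mouse.

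Most of the ligand transcript was that of neither member but of Tgfb3, the third TGF-beta gene, which is part of the wider pathway lists. Per length, Tgfb3 made up 78.4%, 86.4%, 85.5% and 91.3% of the summed TPM of the 3 ligands in WT1, WT2, KO1 and KO3, Tgfb2 15.6%, 11.6%, 12.8% and 3.3%, and Tgfb1 6.0%, 2.0%, 1.7% and 5.5%. The order of the 3 was the same in WT1, WT2 and KO1, while in KO3 Tgfb1 passed Tgfb2. The summed ligand level was 34.99, 31.47, 33.8 and 11.64 TPM, so KO3 was low and the other 3 mice were alike. Tgfb1 and Tgfb2 were found together in 2, 5, 5 and 0 cells.

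Among the receptors, Tgfbr1 (ENSMUSG00000007613.15; chromosome 4, 47353222 to 47414931, plus strand), the type I receptor kinase whose promoter is printed above, lay at 35.06 (WT1), 50.34 (WT2), 11.39 (KO1) and 17.61 CPM (KO3). The means were 42.7 ± 10.81 and 14.5 ± 4.4 CPM (SD, n = 2 mice each), with the highest mouse labelled Sirt6-/- well under the lowest wild-type mouse. The log2 difference was -1.56 (SE 0.37; edgeR unadjusted p = 0.0108, adjusted p = 0.809). DESeq2 gave -1.55 (SE 0.436) and an adjusted p of 0.0439, and the adjusted p under the 13 other settings tried, all with edgeR or limma, ranged from 0.704 to 1.0. With each mouse left out in turn the log2 difference stayed between -1.91 and -1.27.

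Both the share of cells with Tgfbr1 and the median level within those cells were lower in the mice labelled Sirt6-/-. Counts were found in 32 cells of WT1, or 46.4% (34.3 to 58.8), and 44 of WT2, or 50.0% (39.1 to 60.9). In KO1 there were 29 cells, or 39.7% (28.5 to 51.9), and in KO3 18 cells, or 33.3% (21.1 to 47.5). The shares of the genotypes did not overlap but the intervals of the 4 mice did (exact permutation test over mice, two-sided, p = 0.33), and with cells thinned to 500000 counts the shares were 44.9%, 47.7%, 38.4% and 33.3%. The median level in cells with a count was 66.8 (WT1), 50.2 (WT2), 14.5 (KO1) and 43.5 CPM (KO3), lowest in KO1 and close in KO3 and WT2. The lower quartile in those cells was 20.6, 7.8, 3.8 and 20.9 CPM in the same order, not lower in KO3 than in the wild type. On the plate that held most of its cells, unscaled CPM was 45.99 in WT2 (81 cells) and 11.89 in KO1 (65 cells), and the few cells on a second plate had 72.03 (7 cells of WT2) and 10.0 (8 cells of KO1).

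Tgfbr2 (ENSMUSG00000032440.13; chromosome 9, 116084293 to 116175360, minus strand), the type II receptor that binds ligand first, was found in more cells than Tgfbr1. It lay at 147.53 (WT1), 82.35 (WT2), 113.07 (KO1) and 92.67 CPM (KO3), with KO1 and KO3 within the range of the wild type. The log2 difference was -0.16 (SE 0.349; edgeR adjusted p = 0.999), and 0.33 without WT1. WT1 had counts in 85.5% of cells (75.0 to 92.8) and WT2 in 55.7% (44.7 to 66.3), so the wild-type mice differed beyond counting error, while KO1 (69.9%) and KO3 (70.4%) were almost equal. The difference between the genotype means of this share, -0.4 percentage points, was 0.9 after thinning. The median cell had 7009 (WT1), 5783.5 (WT2), 6367 (KO1) and 6614.5 detected genes of any kind (KO3). After thinning WT1 and WT2 still had 6543 and 5511. The part of this in the shares of cells, here and for the other members, was not tested. Per length, the ratio of Tgfbr1 to Tgfbr2 was 0.298, 0.766, 0.126 and 0.238 in WT1, WT2, KO1 and KO3, so the type II receptor transcript was the more abundant in all 4 mice. The ratio was lowest in KO1 and KO3, with KO3 not far from WT1. The difference between the log2 differences of the 2 receptors was not tested.

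**Figure D2:**
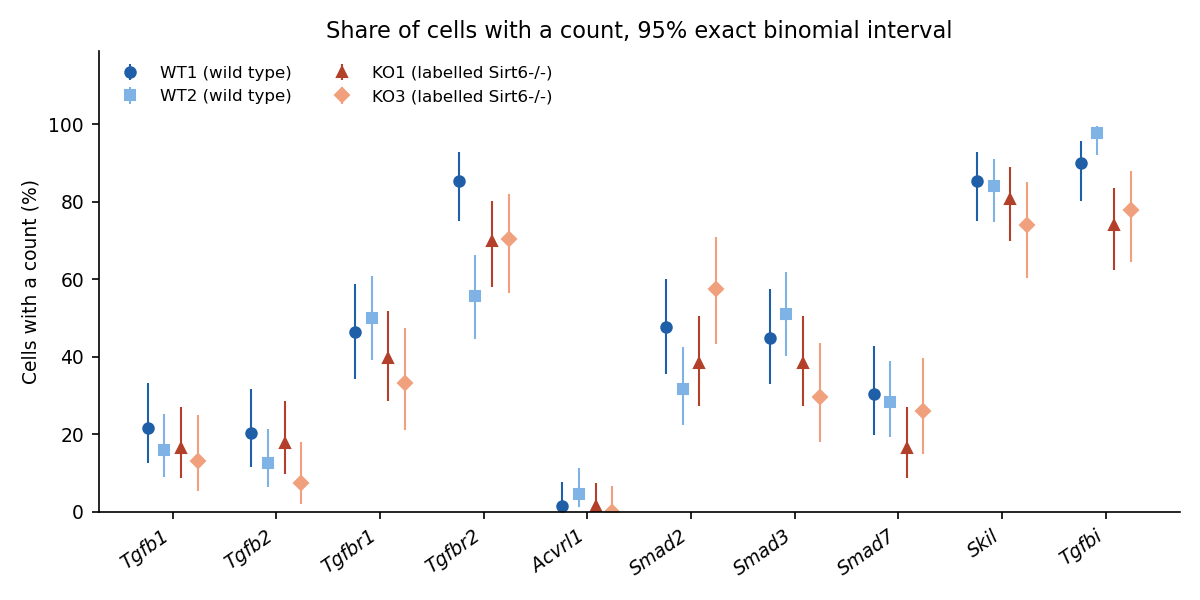
Share of cells with a count of each member in each mouse, in percent of its cells, with 95% exact binomial intervals that cover counting error only. Tgfbi, Skil and Tgfbr2 are found in most cells and the ligands in few, and for Tgfbr1, Smad3, Smad7, Skil and Tgfbi the shares of both mice labelled Sirt6-/- lie under those of both wild-type mice, as do those of 13.8% of all genes tested.

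Acvrl1 (ENSMUSG00000000530.16; chromosome 15, 101128522 to 101145336, plus strand), a type I receptor best known from endothelium, was found in 6 of the 284 cells. The wild type had 484 counts in 5 of 157 cells, and the mice labelled Sirt6-/- 1 count in 127 cells. The ratio of the count rates was 422 (95% counting interval 75.4 to 16700), an interval that covers the counting of reads and not the draw of cells or mice. All counts of WT1 came from 1 cell with 239 counts, and those of WT2 from 4 cells with 23, 36, 57 and 129. The shares were 1.4% (0.0 to 7.8), 4.5% (1.3 to 11.2), 1.4% (0.0 to 7.4) and 0.0% (0.0 to 6.6) in WT1, WT2, KO1 and KO3, with intervals that overlap. DESeq2 gave an adjusted p of 0.00107 and edgeR 0.809 (unadjusted 0.00377), and the adjusted p under the 11 other settings ranged from 0.704 to 1.0. The fitted log2 difference of a gene this close to 0 depends on the prior count and is no bound.

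The 6 cells with Acvrl1 had Krt14 between 16549 and 44397 CPM, in a data set where the median cell of a mouse had 20582 to 30279. The sort rested on Krt14, so this is no separate check of what these cells are. The cell of WT1 also had counts for Pecam1, an endothelial marker, and the 5 others had 0 of the 6 endothelial markers. Eng, the co-receptor of Acvrl1 in endothelium, was at 0 counts in all 6. Gm16031, an annotated antisense gene that overlaps Acvrl1, was at 0 CPM in every mouse.

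Of the signal carriers, Smad2 (ENSMUSG00000024563.16; chromosome 18, 76241580 to 76310963, plus strand) lay at 45.59 (WT1), 24.6 (WT2), 25.65 (KO1) and 41.65 CPM (KO3). The genotypes overlapped fully, with 1 high and 1 low mouse in each. The log2 difference was -0.06 (SE 0.438; edgeR adjusted p = 0.999), 0.46 without WT1 and 0.25 without KO1, so it has no stable sign. Counts were found in 47.8%, 31.8%, 38.4% and 57.4% of the cells of WT1, WT2, KO1 and KO3, where the mean share was the higher in the mice labelled Sirt6-/-, 47.9% ± 13.4 against 39.8% ± 11.3 (SD, n = 2 each; exact permutation p = 0.667).

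Smad3 (ENSMUSG00000032402.12; chromosome 9, 63646767 to 63757994, minus strand), the carrier that binds DNA directly, lay at 30.25 (WT1), 41.25 (WT2), 31.63 (KO1) and 20.77 CPM (KO3). KO1 lay between the wild-type mice and KO3 below both, a log2 difference of -0.45 (SE 0.343; edgeR adjusted p = 0.971). Its share of cells was 44.9% and 51.1% in the wild type and 38.4% and 29.6% in the mice labelled Sirt6-/-, without overlap (exact permutation p = 0.33). After thinning the shares were 44.9%, 47.7%, 37.0% and 29.6%. In the cells with a count the order ran otherwise, with medians of 44.1 (WT1), 55.6 (WT2), 56.4 (KO1) and 67.9 CPM (KO3). The ratio of Smad2 to Smad3 per length was 0.951, 0.376, 0.512 and 1.27, below 1 in 3 mice and above it in KO3.

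**Figure D3:**
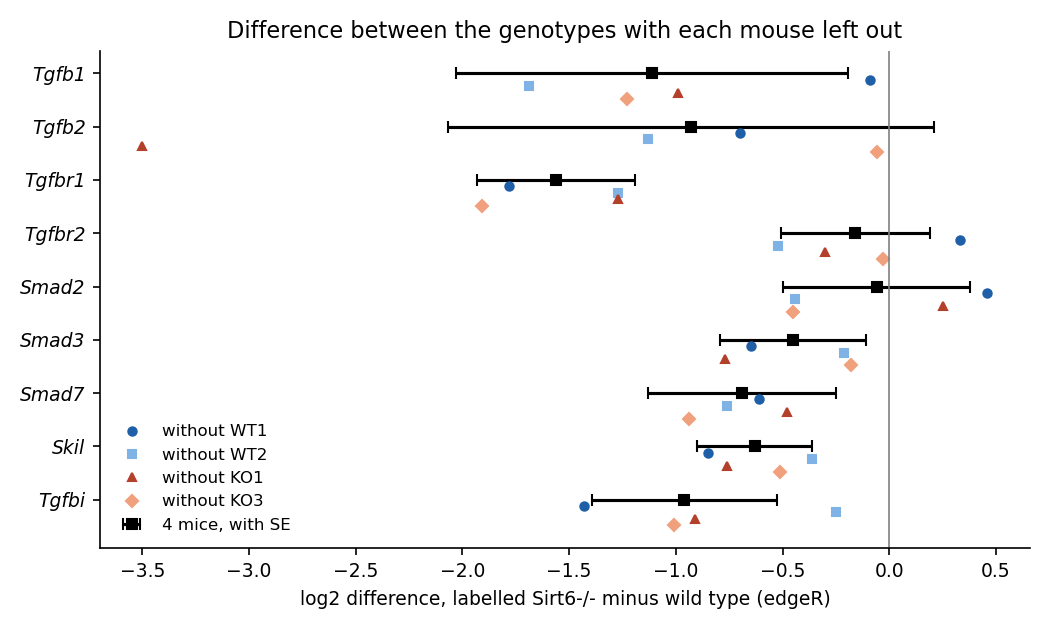
Log2 difference between the genotypes (labelled Sirt6-/- minus wild type) for 9 members, with the standard error derived from edgeR's test on 4 mice (black) and the value with each mouse left out (coloured points). Acvrl1, whose values lie beyond the axis, is not drawn. Tgfbr1 stays between -1.91 and -1.27, Tgfbi moves to -0.25 without WT2, and Tgfbr2 and Smad2 cross 0.

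Both inhibitor genes lay lower in the mice labelled Sirt6-/-, and edgeR called neither. Smad7 (ENSMUSG00000025880.11; chromosome 18, 75367529 to 75395935, plus strand), which blocks the type I receptor, lay at 10.59 (WT1), 9.59 (WT2), 5.28 (KO1) and 7.19 CPM (KO3). The wild-type mice were close to each other and above both others, a log2 difference of -0.69 (SE 0.439; edgeR adjusted p = 0.966). Counts were found in 30.4%, 28.4%, 16.4% and 25.9% of the cells, and in 30.4%, 28.4%, 15.1% and 24.1% after thinning. The median in cells with a count was 23.2 CPM in WT1, WT2 and KO3 and 35.7 in KO1.

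Skil (ENSMUSG00000027660.16; chromosome 3, 31095058 to 31122577, plus strand), the SMAD repressor SnoN, was among the most widely found members, in 85.5%, 84.1%, 80.8% and 74.1% of the cells of WT1, WT2, KO1 and KO3. Its level was 79.58 and 112.87 CPM in the wild type and 67.57 and 56.49 in the mice labelled Sirt6-/-. The genotypes did not overlap, but WT1 lay nearer to KO1 than to WT2. For Skil the log2 difference was -0.63 (SE 0.27; edgeR unadjusted p = 0.0719, adjusted p = 0.965), and -0.36 without WT2. Single cells were heavy contributors, since 1 cell held 21.7% of the counts in WT1 and 1 cell 17.2% in KO1. Within KO1, the unscaled level was 55.38 CPM in the 65 cells of plate 1 and 177.3 in the 8 cells of plate 2.

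The target gene Tgfbi (ENSMUSG00000035493.10; chromosome 13, 56609523 to 56639562, plus strand), whose promoter is printed above, lay at 504.56 (WT1), 1148.97 (WT2), 412.44 (KO1) and 436.62 CPM (KO3). The mice labelled Sirt6-/- were close to each other, WT1 lay little above them, and WT2 stood apart. The log2 difference was -0.96 (SE 0.433; edgeR unadjusted p = 0.0834, adjusted p = 0.965), and -0.25 without WT2. The share of cells parted the genotypes more evenly. It was 89.9% (80.2 to 95.8) in WT1 and 97.7% (92.0 to 99.7) in WT2 against 74.0% (62.4 to 83.5) in KO1 and 77.8% (64.4 to 88.0) in KO3. The shares were the same after thinning to 500000 counts, and the smallest possible permutation p of 0.33 was reached. In the cells with a count the medians were 401.2, 866.6, 398.1 and 288.3 CPM, where WT1 and KO1 were almost equal.

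WT2, the highest mouse for Tgfbr1, Smad3, Skil and Tgfbi, also had the highest level of immediate early response genes, which are known to respond to handling of tissue. The summed level of 10 such genes was 9994 (WT1), 20693 (WT2), 9582 (KO1) and 8892 CPM (KO3). The summed level of 10 genes of basal keratinocyte anchorage, such as Col17a1 and Itgb4, was 34051, 44555, 28944 and 32881 CPM, lower in both mice labelled Sirt6-/-, while 10 suprabasal genes lay at 1466, 2464, 1530 and 2981 CPM. The part of these levels in the differences of the members was not tested.

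**Figure D4:**
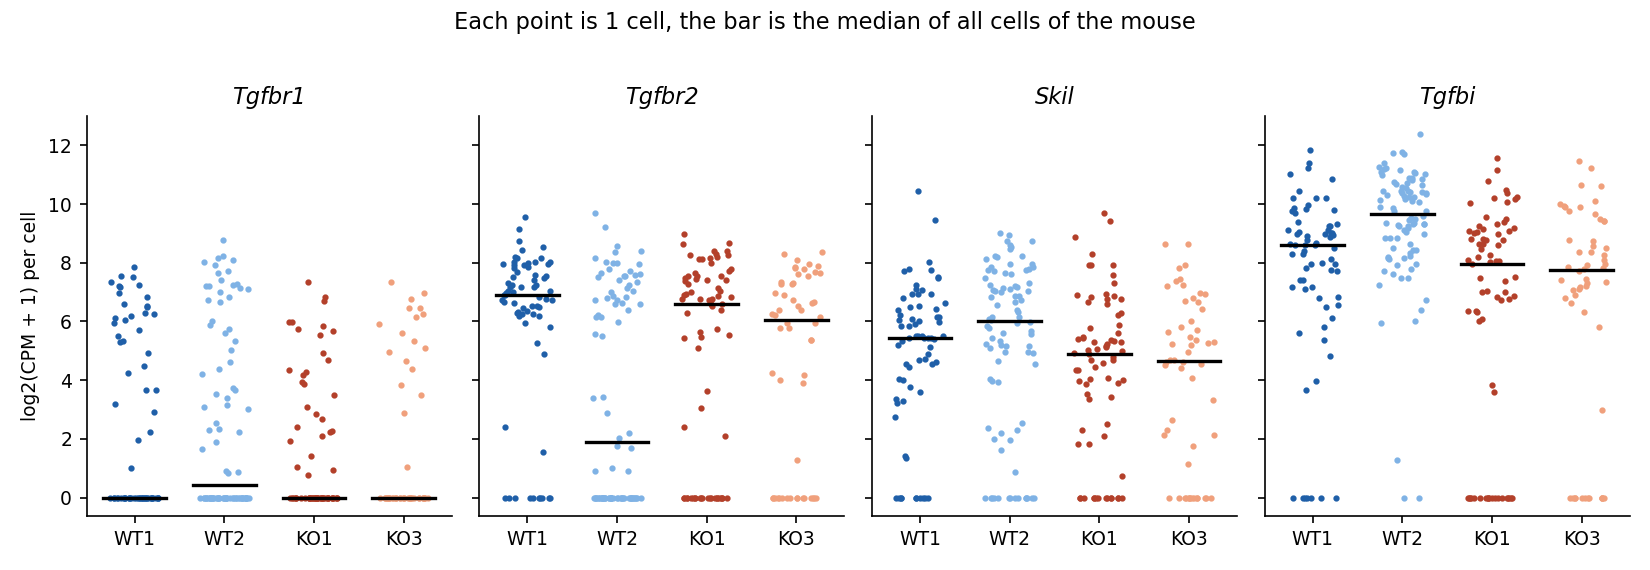
Level per cell of Tgfbr1, Tgfbr2, Skil and Tgfbi as log2(CPM + 1), with 1 point per cell and a bar at the median of all cells of the mouse. Cells without a count form the row at 0, which holds most of the cells for Tgfbr1 in WT1, KO1 and KO3, and the median of Tgfbr2 is lowest in WT2.

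The other genes of the pathway were taken from 7 lists. These were chosen with earlier results of these data known, so their counts describe the lists and do not test them. The lists hold 81 genes, of which 73 passed the filter. Of these, 56 had a negative and 17 a positive log2 difference (median -0.36), where 50.7% of all genes were negative with a median of -0.01. EdgeR called 0, with 5 at an unadjusted p under 0.05, near the 5.12% of all genes, and those 5 were lower in the mice labelled Sirt6-/-. DESeq2 called 2, Tnc and Col7a1, both lower, where it called 0.696% of all genes in that direction. In 21 genes both mice labelled Sirt6-/- lay below both wild-type mice (18.7% of all genes did). In 3 genes both lay above, and no share of all genes is given for that direction. Tnc, which encodes the matrix protein tenascin C, lay at 162.39 (WT1), 301.23 (WT2), 46.84 (KO1) and 40.85 CPM (KO3) (log2 difference -2.40; edgeR unadjusted p = 0.00203, adjusted p = 0.809; DESeq2 adjusted p = 6.29e-07). Col7a1, which encodes the anchoring fibril collagen of the basement membrane, lay at 113.39, 162.11, 61.32 and 36.27 CPM (-1.50; edgeR unadjusted p = 0.012, adjusted p = 0.809; DESeq2 adjusted p = 0.0193). Both are in the list of 21 target genes, of which 19 passed the filter, 14 with a negative and 5 with a positive difference (median -0.43). Junb, the most abundant of that list, had a log2 difference of -0.72 (edgeR adjusted p = 0.965).

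Among the 11 genes of latency and activation, which hold the ligand in the matrix and release it, 9 were negative and 2 positive (median -0.74). The integrin subunit Itgb6, which takes part in the release of latent ligand, lay at 27.22 (WT1), 26.31 (WT2), 14.89 (KO1) and 17.13 CPM (KO3) (log2 difference -0.74; edgeR unadjusted p = 0.0479, adjusted p = 0.965). Thbs1, another activator, lay at 430.05, 1951.4, 574.65 and 207.58 CPM, high in WT2 and lowest in KO3 (-1.61; adjusted p = 0.965). For ligands other than the members, the TGF-beta and activin list had 4 negative and 1 positive of 5 tested (median -0.35), with Tgfb3 at 36.54, 40.0, 40.68 and 15.55 CPM. The BMP list also had 4 negative and 1 positive of 5 tested (median -1.12). Its negative genes include Bmp1 (-0.07), which encodes a protease and no BMP ligand. They also include Gdf15 (-2.07, SE 2.649), a more distant ligand at a mean of only 0.29 CPM. The positive gene was Bmp7 at 78.22, 24.27, 85.26 and 75.6 CPM, low in WT2.

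For further receptors and co-receptors, 7 were negative and 4 positive of 11 tested (median -0.26). The activin type II receptor Acvr2a lay at 29.92, 35.31, 21.01 and 18.79 CPM (log2 difference -0.71; edgeR unadjusted p = 0.0483, adjusted p = 0.965), and Bmpr2, the most abundant of the list, at -0.35. Of the other SMADs, 3 of 4 tested were negative (median -0.51), with Smad5, a carrier of BMP signals, at 57.43, 45.78, 35.74 and 29.44 CPM (-0.66; edgeR adjusted p = 0.965). Smad4, the shared partner and named here after its values were seen, was the positive one at 18.11, 16.22, 27.75 and 21.76 CPM. Of 18 tested cofactors and repressors 15 were negative and 3 positive (median -0.25). Ski, the close relative of Skil, lay at 60.76, 49.76, 30.54 and 36.19 CPM (-0.73; edgeR unadjusted p = 0.0368, adjusted p = 0.922), and Strap, the most abundant, at -0.05.

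Within single cells, 3 pairs of members were compared with the products of their separate shares, which is how often both would be found if the shares were independent. Both receptor transcripts, Tgfbr1 and Tgfbr2, were found in 28, 25, 21 and 11 cells, or 40.6% (28.9 to 53.1), 28.4% (19.3 to 39.0), 28.8% (18.8 to 40.6) and 20.4% (10.6 to 33.5) of the cells of WT1, WT2, KO1 and KO3. The products of the separate shares were 39.7%, 27.8%, 27.8% and 23.5%, inside each interval. Thinned to 500000 counts, the shares of cells with both were 39.1%, 27.3%, 28.8% and 20.4%. Smad2 and Smad3 were found together in 24.6%, 14.8%, 15.1% and 20.4% of the cells, where the products were 21.5%, 16.3%, 14.7% and 17.0%. Tgfb1 and Tgfb2 were found together in 2.9% (0.4 to 10.1), 5.7% (1.9 to 12.8), 6.8% (2.3 to 15.3) and 0.0% (0.0 to 6.6) of the cells, against products of 4.4%, 2.0%, 2.9% and 1.0%. The ligands were thus found together more often than the product in WT2 and KO1 and less often in WT1 and KO3, with every product inside its interval. Both receptors with Smad2 or Smad3 were found in 30.4%, 17.0%, 19.2% and 16.7% of the cells. The median cell had counts of 5 of the 10 members in WT1 and of 4 in WT2, KO1 and KO3. A cell without a count may still hold the transcript below detection.

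Co-variation across the cells of a mouse was measured for the 6 members detected in 20% or more of the cells in each mouse: Tgfbr1, Tgfbr2, Smad2, Smad3, Skil and Tgfbi. Values were log2(CPM + 1) with the linear trends on depth and detected genes removed, and the correlations are descriptions with no test, over 69, 88, 73 and 54 cells that share a mouse and mostly a plate. Over the 15 pairs the mean Pearson correlation was 0.058, 0.038, 0.022 and 0.085 in WT1, WT2, KO1 and KO3, against 0.004, 0.001, 0.002 and 0.002 over all pairs of the 8474 genes that passed the same minimum. Single pairs ranged from -0.27 to 0.33. Correlations were positive in all 4 mice for 3 pairs: Smad3 with Tgfbi (0.06 to 0.20), Tgfbr1 with Tgfbi (0.01 to 0.10) and Smad2 with Smad3 (0.01 to 0.12). Smad3 with Skil was negative in all 4 (-0.16 to -0.01). The 2 receptors had correlations of 0.06, 0.05, -0.08 and -0.26. In sparse counts, values this weak are not read as a relation.

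Of the 6 members, Tgfbi had the highest correlation with the basal anchorage genes. It also had the highest level of them, and the part of level and detection in this order was not tested. No share of all genes with such a correlation is given. Its correlation with the mean score of those 10 genes was 0.40, 0.68, 0.46 and 0.77 in WT1, WT2, KO1 and KO3. With the suprabasal score, which held 9 genes, it was -0.18, -0.57, -0.04 and -0.61. Smad3 followed at 0.28, 0.23, 0.27 and 0.02 with the basal score, and Tgfbr2 at 0.09, 0.15, 0.17 and 0.29. Tgfbr1 changed sign between mice, with 0.15, 0.09, -0.08 and -0.06. The scores and the members come from the same libraries and share their depth.

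**Figure D5:**
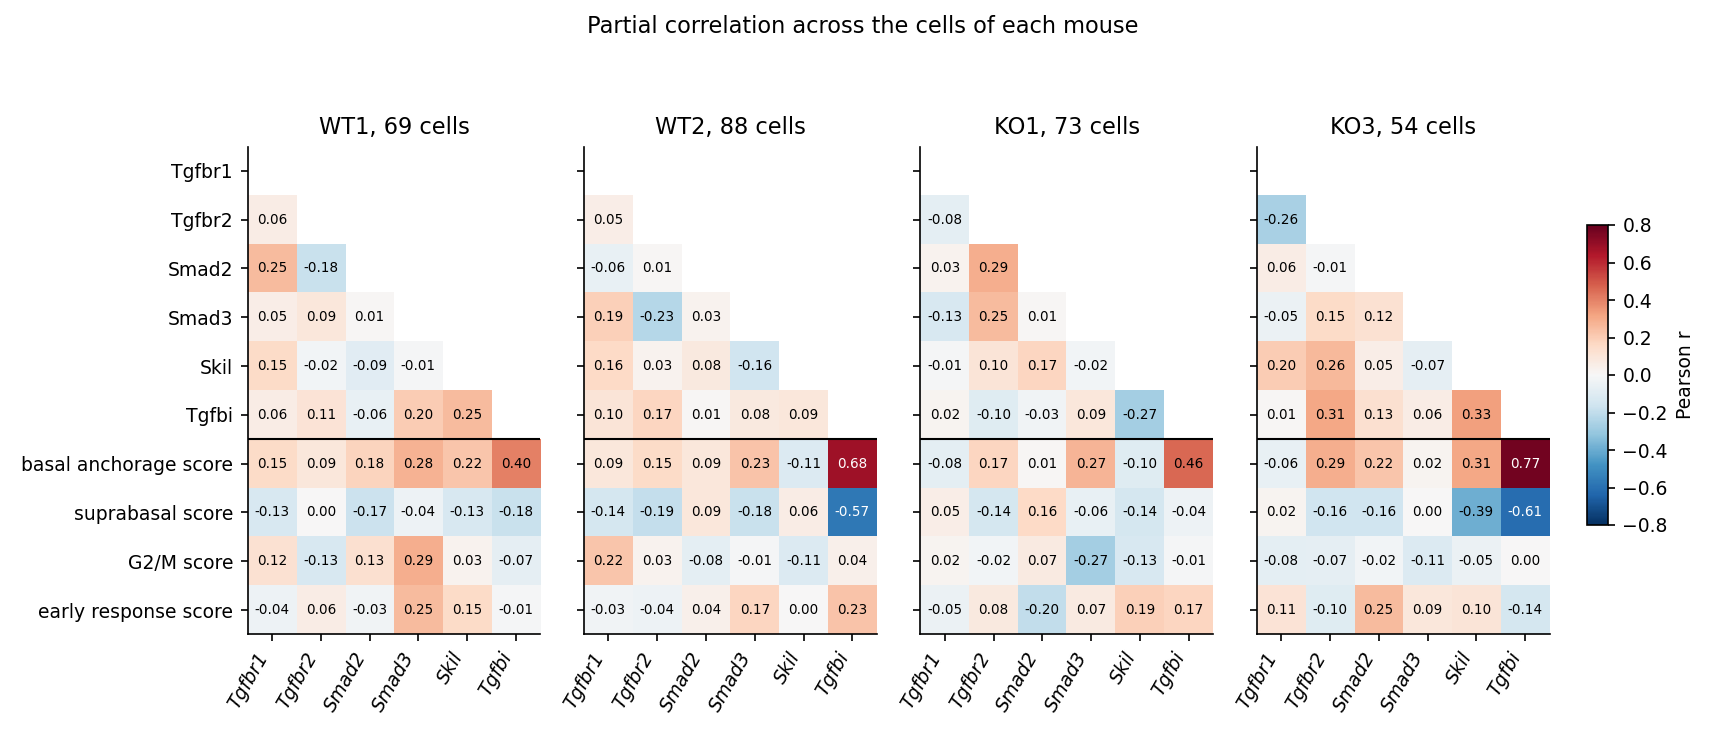
Partial Pearson correlation across the cells of each mouse for 6 members (upper rows) and for their relation to 4 gene scores (rows under the line), with red for positive and blue for negative values. The values of Tgfbi with the basal anchorage score lie between 0.40 and 0.77 and with the suprabasal score between -0.61 and -0.04, while the pairs of members stay between -0.27 and 0.33.

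The genes whose pattern over cells was most like that of a member were ranked by the lowest of their 4 within-mouse correlations, over the same 8474 genes. For Tgfbi they were Cavin3, which encodes a caveola coat protein (0.36, 0.46, 0.37 and 0.47 in WT1, WT2, KO1 and KO3), the integrin gene Itgb1 (0.39, 0.65, 0.34 and 0.62) and the basal keratin gene Krt5 (0.33, 0.62, 0.45 and 0.51), of which Itgb1 and Krt5 belong to the basal score. For Skil they were Fam167a, with 0.29 as the lowest value, Tcirg1 (0.23) and Gm12840 (0.18). For the 4 other members, the lowest values of the nearest genes named here lay between 0.14 and 0.20. They were Lrrc8d, Cib2 and Scmh1 for Smad3, Gm7390, the serine protease gene Htra1 and Gm9824 for Tgfbr2, Tom1l2, Gpalpp1 and Nars2 for Smad2, and Acadm and Rcbtb2 for Tgfbr1. Gm7390 and Gm9824 had mean levels of only 2.0 and 1.4 CPM. As the highest of 8474 genes, values this weak are not read as a relation. No member was among the 3 nearest genes of another.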

How the data were processed

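Per the labels' protocols, RNA of single sorted cells was sequenced with an adapted Smart-seq2 method. The authors deposited expected counts for each gene in each cell, and the submitters' processing notes name STAR, RSEM and the build mm10 (GRCm38), with versions not given in the sources used here. Among non-zero values, 21.5% were fractional, because reads shared between similar genes are divided. A strand setting is likewise not given. Symbols and coordinates came from GENCODE M21 (54156 of 54247 IDs matched).

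All cells were kept. Wells were sorted as single cells, so no doublets were called, and 0 pairs of cells were identical (highest correlation 0.76). Cells were grouped by the mouse and genotype labels. Expected counts were summed per mouse, rounded, and tested with edgeR 4.0.16 in R 4.3.3 (TMM, filterByExpr, quasi-likelihood test, two-sided, Benjamini-Hochberg over 16567 genes, threshold 0.05, 2 residual degrees of freedom). The common biological coefficient of variation was 0.72. The SE given with edgeR values is the absolute log2 difference divided by the square root of the test's F statistic. The labels give separate mice, and p-values rest on the spread between them. Each mouse lay wholly or mostly on its own plate, so this spread holds that of mice and plates together. DESeq2 1.42.0 and limma 3.58.1 (voom, and means per cell), other scalings and filters, mice left out, cells thinned to 500000 counts and main plates only were alternatives. TPM used union exon length. Shares carry Clopper-Pearson 95% intervals. Partial correlations removed trends on log10 total counts and detected genes. Levels of Sirt6, markers, scores, plates and single cells are unscaled CPM, others TMM-scaled.

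The members, lists and tests were chosen with earlier results of these data known. All 10 members are named. Each pathway list names its most abundant gene and those at an unadjusted edgeR p under 0.05, and each of the 6 widely detected members its 3 nearest genes, of which 1 is not reported here. Promoters are from RefSeq (GRCm38.p6).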

Additional observations from a re-analysis of the deposited data

How the results depend on the processing

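Of the recomputed values, 194 were counted as kept and 2 newly passed the threshold. A further 3 counts of called genes or members, each 0 in the main fit, rose above 0, and 6 values turned sign. Kept means the same sign and side of the threshold for a log2 difference, and the same sign for a share of cells. For counts it means a change of at most 1.5 times, or a count of 0 that stayed at 0. For correlations and co-detection it means a change within the SD over mice. A log2 difference could thus shrink and be kept, as for Tgfb1 without WT1 (-0.09 against -1.11). DESeq2 called 148 genes, 2 of them members, where edgeR called 0: Tgfbr1 with a log2 difference of -1.55 and Acvrl1 with -8.77. With only genes of at least 10 CPM in 2 mice, which tests 7 members and drops Tgfb1, Acvrl1 and Smad7, edgeR called 1 gene and 0 members. The cause of these differences between tests was not tested. Signs turned for Tgfbr2 without WT1 (0.33), for Smad2 without WT1 (0.46), without KO1 (0.25) and for the mean of log2 values over cells (0.30), and for the Tgfbr2 share of cells, at 0.9 percentage points after thinning and 2.6 with at least 5 counts as the limit. With each mouse left out in turn, log2 differences ranged from -1.69 to -0.09 for Tgfb1, -3.50 to -0.06 for Tgfb2, -1.91 to -1.27 for Tgfbr1, -0.52 to 0.33 for Tgfbr2, -10.82 to -7.76 for Acvrl1, -0.45 to 0.46 for Smad2, -0.77 to -0.18 for Smad3, -0.94 to -0.48 for Smad7, -0.85 to -0.36 for Skil and -1.43 to -0.25 for Tgfbi. Between 8 and 10 members were negative in these fits, 0 were called, and the lone mouse left in a genotype is assumed there to vary like the others. The mean of log2(CPM + 1) over cells, a scale on which rare genes differ little, gave -0.93 for Tgfbr1, -2.10 for Tgfbi and -0.18 for Acvrl1, with 9 of 10 members negative, and without the top cell of each mouse Tgfb1 had -1.84. The median of all genes with a mouse left out moved as far as -0.12 (without KO1). The relation of Tgfbi to the basal score and its 5 alternatives were chosen after seeing the data, and the mean over mice stayed between 0.54 and 0.60. Without the top cell of each mouse, Acvrl1 had no counts left in WT1, and its value was not recomputed. No paired analysis was possible because the genotypes share only the replicate number 1. Values of genes found in few cells, such as Acvrl1, Tgfb1 and Tgfb2, rest on few libraries.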
